A study of Homo sapiens with 6 samples.

Results

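NSG1 and NSG2 encode small membrane proteins of endosomes, first described in neurons. They were described here through every probe set that the platform annotation assigns to NSG1 alone or to NSG2 alone. These are 2 of the 18129 genes measured and hold 9 of the 49193 probe sets on the array, 5 for NSG1 and 4 for NSG2, and no probe set was shared with another gene. Both genes were picked because of how they differ between androgen and vehicle in these same arrays, so their own differences are given as descriptions without a test. Each array carried total RNA of UMUC3-c31, a cell line whose name points to UMUC3, an established line from a human bladder carcinoma. In the 3 R1881 arrays the cells had been kept in 10 nM R1881, a synthetic androgen, for 24 h. In the 3 vehicle arrays they had received ethanol. All 6 cultures had first spent 24 h without steroids, in charcoal-treated serum. The series design names the 3 arrays of each group as biological replicates. The labels do not say how c31 was derived or whether it is 1 clone, and the groups hold this line only.

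Endosomes sort membrane proteins taken up from the cell surface, either back to the surface through recycling compartments or onward to lysosomes. In rodent neurons NSG1, also called NEEP21, sits on early and recycling endosomes, where it takes part in the return of AMPA-type glutamate receptors to the surface and in the sorting of the amyloid precursor protein and of the adhesion molecule L1. NSG2 is its close relative and is found mainly in neurons, and calcyon, the product of CALY, is the other member of the family and binds clathrin light chains. Human NSG1 has also been reported as a gene that p53 can induce. None of this was measured here.

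NSG1 lies on human chromosome 4 and NSG2 on chromosome 5. Of the 2 genes, NSG1 was matched in the RefSeq promoter table (GRCh38.p14), which lists 2 start sites for it, both on the plus strand. Both windows are printed because NSG1 is the member whose RNA was higher with the androgen. Each runs from 250 bases before to 50 bases after the annotated start, whose base is the capital letter.
NSG1 upstream start, chr4:4386282-4386581: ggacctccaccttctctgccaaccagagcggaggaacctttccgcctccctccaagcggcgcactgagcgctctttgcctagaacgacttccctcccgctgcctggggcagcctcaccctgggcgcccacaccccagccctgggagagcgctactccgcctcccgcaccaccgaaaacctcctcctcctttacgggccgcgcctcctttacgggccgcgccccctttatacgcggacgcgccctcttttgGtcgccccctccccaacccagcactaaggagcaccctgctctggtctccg
NSG1 downstream start, chr4:4386852-4387151: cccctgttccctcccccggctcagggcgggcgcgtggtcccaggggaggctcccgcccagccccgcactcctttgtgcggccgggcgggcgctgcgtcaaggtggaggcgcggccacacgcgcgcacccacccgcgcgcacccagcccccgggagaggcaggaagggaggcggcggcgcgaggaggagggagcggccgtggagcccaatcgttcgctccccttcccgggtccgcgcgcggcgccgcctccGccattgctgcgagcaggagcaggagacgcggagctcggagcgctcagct

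Both windows are rich in G and C, with a GC share of 67.3% and 24 CpG dinucleotides in the upstream window and 77.3% and 41 in the downstream window, where the median GC share of 35116 promoter windows of the same length was 58.7%. The half-site of the androgen response element, AGAACA on either strand, was in neither window, and was in 14.8% of all windows. The full palindrome, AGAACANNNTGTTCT, which contains that half-site on each strand, was likewise in neither and in 0.00285% of all windows. These letters were searched only in these windows, and the arrays do not tell which start was used.

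NSG1 RNA was higher in every R1881 array than in every vehicle array on all 5 of its probe sets. The 5 differences ran from 0.76 to 2.50 on the log2 scale, with a median of 2.15. Among all 44898 probe sets with 1 gene symbol, the groups did not overlap in 17%, and in 7.76% they did so with R1881 higher. Because the members were chosen on this contrast, nothing is read from that comparison. An array of total RNA also cannot tell more NSG1 RNA in each cell from more cells that carry it.

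The brightest NSG1 probe set, 11743423_a_at, had log2 values of 7.01, 6.94 and 6.92 in R1881 replicates 1 to 3, against 4.32, 4.53 and 4.51 in vehicle replicates 1 to 3. The lowest R1881 array lay 2.39 above the highest vehicle array. The means were 6.96 ± 0.047 with R1881 and 4.45 ± 0.12 with vehicle (SD, n = 3 each), a difference of 2.50 ± 0.07 (SE from the 2 group SDs). The vehicle mean lay below 4.99, the level taken as background, which is the 90th percentile of 423 olfactory receptor and keratin-associated protein genes. A fold is therefore given only as at least 3.91-fold, counted from that level.

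Probe set 11727032_a_at, annotated to the RefSeq transcript of NSG1, showed the same split. Its log2 values were 6.56, 6.63 and 6.39 in the R1881 arrays, against 3.94, 4.27 and 4.41 in the vehicle arrays. Its difference was 2.32 ± 0.16 (SE), or at least 2.90-fold. Probe set 11748198_a_at had 5.98, 5.64 and 5.70 with R1881, against 3.56, 3.64 and 3.68 with vehicle. On this set the vehicle arrays lay within 0.12 of each other, and R1881 replicate 1 was the highest of the 6. Its difference was 2.15 ± 0.11, or at least 1.72-fold because the vehicle arrays were so far below the background level.

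The other two NSG1 probe sets were both designed on the same expressed sequence tag and gave smaller differences. Set 11743424_a_at had log2 values of 5.90, 5.83 and 5.52 in the R1881 arrays, against 5.11, 4.72 and 5.15 in the vehicle arrays. Set 11743425_x_at had 5.87, 5.83 and 5.64 with R1881, against 5.14, 4.64 and 5.17 with vehicle. The values of the pair differed by at most 0.12 in any array, so they do not count as separate evidence of each other. In both, vehicle replicate 2 was the lowest array and R1881 replicate 3 the lowest of its group, and the nearest arrays of the 2 groups were 0.37 and 0.47 apart. The differences were 0.76 ± 0.18 and 0.80 ± 0.19 (SE). The vehicle means of 4.99 and 4.98 lay at the background level, so no exact fold is given. In 11743425_x_at only vehicle replicate 2 lay under that level. With this array raised to the level and the other vehicle arrays kept, the fold was at least 1.60. The x in the name of 11743425_x_at marks probes that may match other transcripts. Which transcripts the probes of these sets reach was not tested.

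Averaged over its 5 probe sets, NSG1 stood at 6.16 ± 0.12 with R1881 and 4.45 ± 0.12 with vehicle (SD, n = 3 each), a difference of 1.70, against 2.50 on the brightest set. Ordered by difference among all 49193 probe sets, the 3 NSG1 sets of larger difference ranked 3, 5 and 7. The sets at ranks 1, 2, 4 and 6 belonged to EDN2, which encodes the vasoconstrictor endothelin 2, ANGPTL4, CRISPLD2 and the actin-binding protein gene ABLIM3. The other NSG1 sets ranked 150 and 164. These ranks use measured differences. Since the vehicle means of the 3 sets lie below background, they describe these arrays only and bound no fold. The 5 sets did not give 1 common size of difference.

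NSG2 RNA was below the background level in all 6 arrays on all 4 of its probe sets, so that no fold is given. The brightest, 11749315_a_at, had log2 values of 4.26, 4.28 and 4.26 in the R1881 arrays, against 4.32, 4.24 and 4.18 in the vehicle arrays. The R1881 values fell inside the range of the vehicle values, and the difference was 0.02 ± 0.04 (SE). Probe set 11733723_a_at, annotated to the RefSeq transcript of NSG2, had 2.77, 2.97 and 2.84 with R1881, against 2.81, 2.84 and 2.72 with vehicle. Here too the groups overlapped, with a difference of 0.07 ± 0.07. The other two sets, 11748852_x_at and 11733724_x_at, differed by 0.08 and 0.06, and their groups also overlapped. The 4 differences, 0.02 to 0.08, were all above 0 by sign. Among the 423 genes used for the background level, 34.3% lay as far from 0 as the largest of them, and differences between the 5th and 95th percentiles ran from -0.15 to 0.16. A change of NSG2 was thus not detectable at this signal, which is not a measurement that it is absent.

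**Figure D1:**
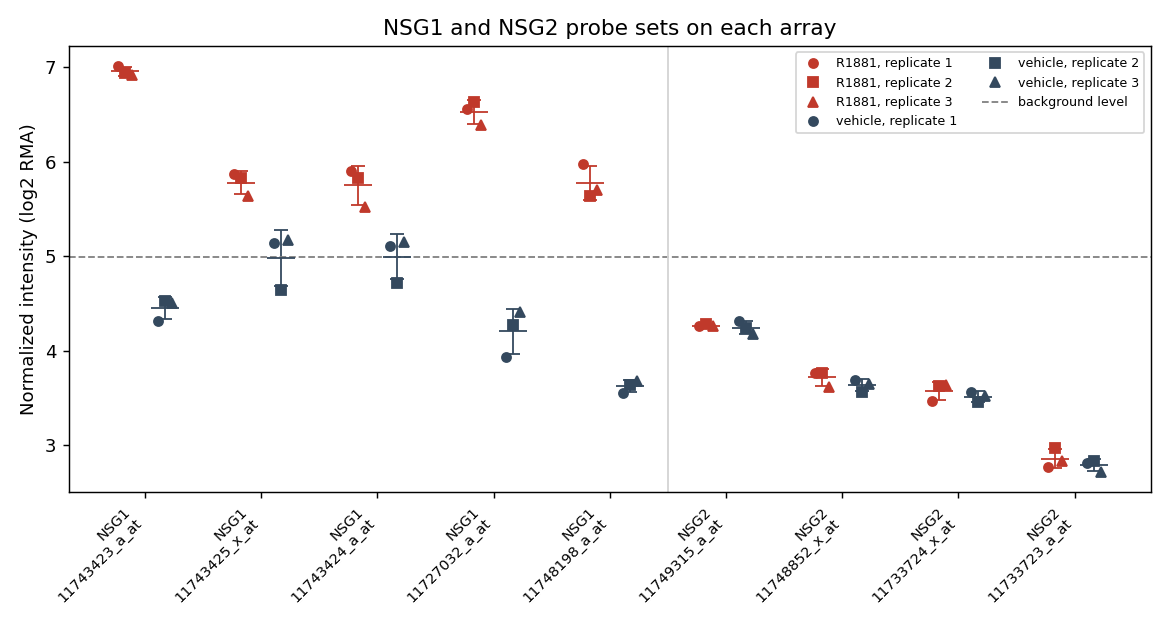
Log2 RMA values (vertical axis) of the 5 NSG1 and 4 NSG2 probe sets (horizontal axis), with R1881 arrays left of vehicle arrays in each, 1 point per array, and the mean with SD as a bar. The dashed line is the background level of 4.99. All NSG1 sets have the R1881 arrays above the vehicle arrays, with mean differences of 2.15 to 2.50 in 3 sets and 0.76 to 0.80 in the other two, and all NSG2 points lie under the line with overlapping groups.

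The genes whose profile over the 6 arrays was most like that of NSG1 were ANGPTL4, a secreted inhibitor of lipoprotein lipase, CRISPLD2, a secreted glycoprotein, EDN2, PXYLP1, a phosphatase of proteoglycan linker synthesis, and the angiogenic factor gene PGF. Likeness was the mean absolute difference between values centred on each gene's mean, over 6 arrays, and it was 0.032 for ANGPTL4, 0.081 for CRISPLD2, 0.14 for EDN2, 0.28 for PXYLP1 and 0.32 for PGF. ANGPTL4 had log2 values of 10.46, 10.48 and 10.47 with R1881, against 7.81, 8.01 and 8.03 with vehicle. This measure favours genes with a difference of similar size. The vehicle values of NSG1 lie below background, so likeness within the vehicle arrays is not a measured pattern of NSG1, and NSG2 was not compared because it lay below background in both groups.

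**Figure D2:**
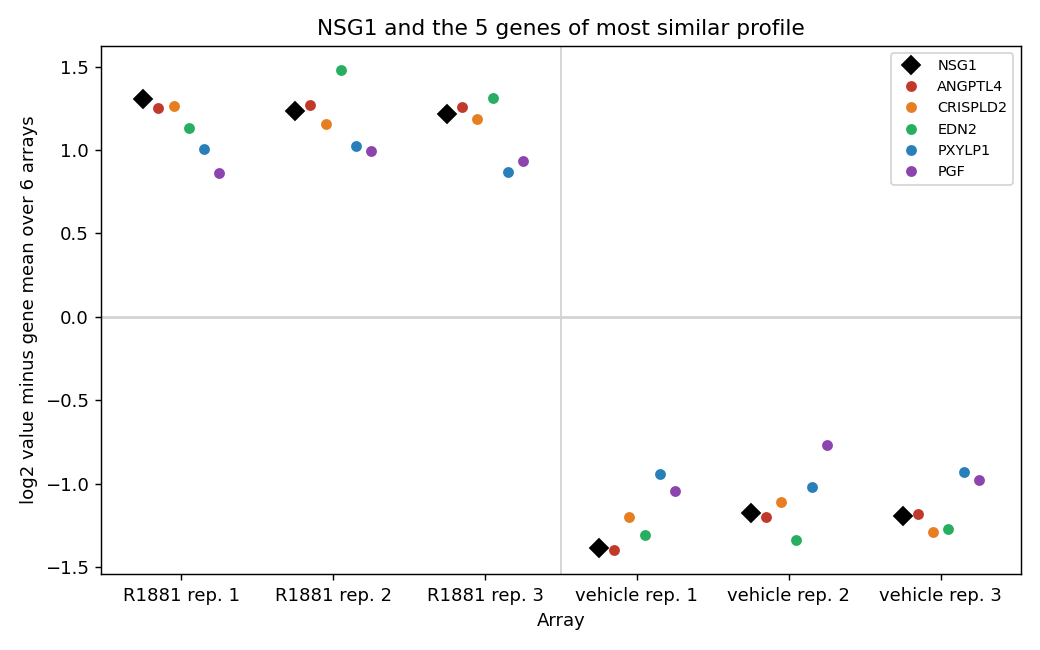
Values of NSG1 (diamonds, probe set 11743423_a_at) and of the 5 genes of most similar profile (circles), each minus the gene's mean over the 6 arrays, on the log2 scale (vertical axis), for the 3 R1881 and 3 vehicle arrays (horizontal axis). ANGPTL4 follows NSG1 most closely, with a mean absolute difference of 0.032, while PXYLP1 and PGF lie nearer to 0 in both groups.

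None of the 20 measured genes listed from general knowledge as partners and cargoes of the family passed the test. In limma's fit over 18129 genes, 438 were called at an adjusted p under 0.05, which is 2.42% of all genes, with 1.6% higher and 0.816% lower. Of 20 measured partners and cargoes 0 were called, and 1 had an unadjusted p under 0.05, as had 14.3% of all genes. Their median difference was 0.02 on the log2 scale, against 0.00 over all genes, and 11 of the 20 lay above background. With so few genes, no call is near the share of all genes called, and nothing is read from it.

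CALY, the remaining family member, lay below background, with 4.64, 4.78 and 4.61 in the R1881 arrays, against 4.52, 4.60 and 4.64 in the vehicle arrays. The groups overlapped, and the difference was 0.09 ± 0.06 (SE, limma adjusted p = 0.551). The cargo with the largest difference was L1CAM, the adhesion molecule L1, at 9.66, 9.78 and 9.68 with R1881, against 9.05, 9.31 and 9.46 with vehicle. Its groups did not overlap, and the difference of 0.43 ± 0.10 missed the threshold (limma adjusted p = 0.102). Its 2 probe sets disagreed, with 0.43 on the brighter and 0.03 on the other, and it passed in 2 alternative fits (adjusted p = 0.0471 among genes above background and 0.0217 with a trended, robust prior).

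STX12, the endosomal syntaxin 13 that binds NSG1 in rodent neurons, stood at 8.23 with R1881 and 8.12 with vehicle, a difference of 0.11 ± 0.05 (limma adjusted p = 0.421). APP, the amyloid precursor protein gene, stood at 11.79 and 11.83, a difference of -0.04 ± 0.04 (limma adjusted p = 0.703), and its 13 probe sets ran from -0.06 to 0.02. The recycling GTPase gene RAB4A differed by -0.03 and the clathrin light chain genes CLTA and CLTB by -0.07 and 0.05. The clathrin heavy chain gene CLTC differed by 0.03, and the adaptor subunit genes AP1M1, AP2M1, AP3M1 and AP3D1 by 0.00, 0.01, -0.02 and 0.04. All of these lay above background in both groups and differed by at most 0.11 on their brightest probe sets. On their other probe sets the differences reached 0.20 in STX12, whose 3 sets were all higher by sign, and 0.13 in RAB4A.

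The neuronal partners lay below background in both groups. These were the AMPA receptor subunit genes GRIA1, GRIA2, GRIA3 and GRIA4, the scaffold genes GRIP1 and GRIP2, the neurotensin receptor gene NTSR2, whose trafficking NSG1 has been reported to affect, and the dopamine receptor gene DRD1, to whose receptor calcyon was first linked. On their brightest probe sets the differences ran from -0.11 in GRIA2 to 0.12 in GRIP2. The 4 GRIA1 sets ran from -0.20 to 0.16. NTSR2 had 3.32, 3.24 and 3.26 with R1881, against 3.32, 3.41 and 3.23 with vehicle.

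In the wider trafficking lists the median differences were likewise near 0. Over all genes 2.42% were called by limma and 14.3% had an unadjusted p under 0.05. Of 46 early and recycling endosome genes 0 were called by limma, with 4 at an unadjusted p under 0.05, a median of 0.01 and 43 above background. Of 27 retromer and sorting nexin genes 0 were called, with 1 at an unadjusted p under 0.05 and a median of 0.00. Of 31 genes of clathrin coats and adaptors 0 were called, with 3 at an unadjusted p under 0.05 and a median of 0.01. The member of each with the largest difference was EHD2, an ATPase of caveolae and the cell surface (0.61 ± 0.14, adjusted p = 0.100), SNX5, a cargo-binding sorting nexin (-0.17 ± 0.04, adjusted p = 0.128), and AP2A1, a subunit of the plasma membrane adaptor (0.30 ± 0.11, adjusted p = 0.282). The 5 EHD2 probe sets disagreed, from -0.03 to 0.61, and the 4 SNX5 sets all lay between -0.19 and -0.16.

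Of 32 late endosome and lysosome genes 1 rose, 0 fell and 31 did not pass, with 3 at an unadjusted p under 0.05. The share called was 3.12%, against 2.42% of all genes, and 14.3% of all genes had an unadjusted p under 0.05. The gene that rose was CTSD, the lysosomal protease cathepsin D, with 9.42, 9.43 and 9.46 in the R1881 arrays, against 8.87, 9.09 and 9.05 in the vehicle arrays. The groups were apart, and the difference was 0.43 ± 0.06 (limma adjusted p = 0.0189), with 0.42 to 0.43 on its 3 probe sets. CTSD lost its call without any 1 of the R1881 arrays or without vehicle replicate 3, with an adjusted p of up to 0.0966, and kept it without vehicle replicate 1 or 2. Over the 5 lists together, 1 of 147 genes was called, or 0.68%, against 2.41% of all genes other than NSG1 and NSG2.

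**Figure D3:**
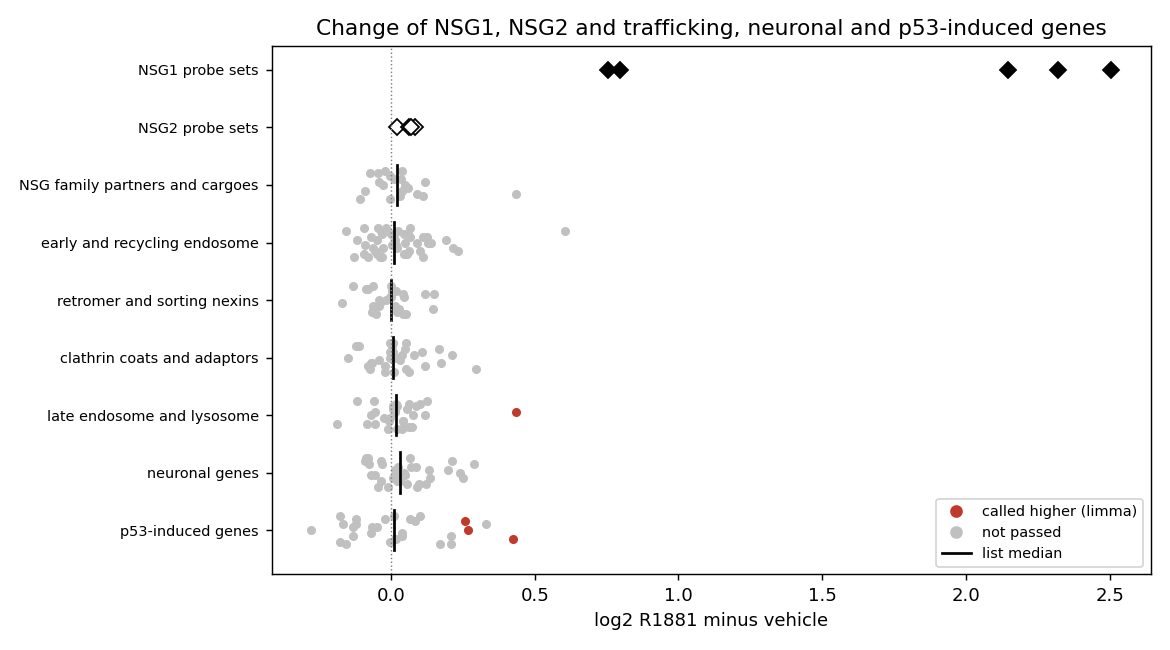
Log2 difference, R1881 minus vehicle (horizontal axis), of each NSG1 and NSG2 probe set (diamonds) and of each measured gene in 7 lists (circles, red where limma called the gene higher), with the list median as a vertical line. The 5 NSG1 probe sets lie at 0.76 or more, and the medians of the lists lie between 0.00 and 0.03.

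NSG1 and NSG2 are best known from neurons, so other neuronal genes were set beside them. Of 33 measured neuronal genes 0 were called by limma, with 4 at an unadjusted p under 0.05, against 2.42% and 14.3% of all genes. Their median was 0.03 and 13 lay above background. Averaged over the list, the level was 5.19 to 5.22 in the R1881 arrays and 5.13 to 5.19 in the vehicle arrays. The largest difference was in ENO2, neuron-specific enolase, which stood at 9.15 with R1881 and 8.86 with vehicle, a difference of 0.29 ± 0.06 (adjusted p = 0.0793).

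Of 29 measured p53-induced genes 3 rose, 0 fell and 26 did not pass, with a median of 0.01. The share called was 10.3%, against 2.42% of all genes, and 9 of the 29 had an unadjusted p under 0.05, against 14.3% of all genes. These 9 went both ways. Besides the 3 that rose, TP53I3, TNFRSF10B and TNFRSF10C were higher, by 0.21, 0.17 and 0.33, with TNFRSF10C below background. EDA2R, FAS and DDB2 were lower, at -0.28, -0.18 and -0.12. By sign 15 of the 29 were higher. CDKN1A, the inhibitor of cyclin-dependent kinases, had 9.71, 9.73 and 9.71 with R1881, against 9.35, 9.29 and 9.24 with vehicle, a difference of 0.42 ± 0.05 (limma adjusted p = 0.00492). GADD45A, a stress sensor, rose by 0.26 ± 0.04 (adjusted p = 0.0223), and SESN1, a sestrin that restrains growth signalling, by 0.27 ± 0.05 (adjusted p = 0.0425). SESN1 had opposite differences on its 2 probe sets, 0.27 and -0.19. Without any 1 of the 6 arrays GADD45A and SESN1 lost their calls, with adjusted p of up to 0.0896 and 0.159, and CDKN1A alone was left.

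No gene that adjoins NSG1 on chromosome 4 passed the test, which 2.42% of all genes passed. In so few genes no call is near that share, and nothing is read from it. The 3 nearest measured protein-coding genes before it, in RefSeq order, are ZBTB49, LYAR and TMEM128, and the 3 after it are STX18, MSX1 and CYTL1. Their differences ran from -0.08 in TMEM128 to 0.02 in CYTL1. Limma called none, and the smallest adjusted p was 0.472, for LYAR. None had an unadjusted p under 0.05, against 14.3% of all genes. The other LYAR probe set stood at -0.22. STX18, a syntaxin of the endoplasmic reticulum and the next gene after NSG1, had 7.10, 6.91 and 7.11 with R1881, against 7.09, 7.09 and 7.07 with vehicle. ZBTB49 and CYTL1 lay below background. Around NSG2 on chromosome 5, the neighbours BOD1, CPEB4, C5orf47, MSX2, DRD1 and SFXN1 differed by -0.14 to 0.00 on their brightest sets, again with no call by limma. BOD1, a factor of chromosome alignment, had the smallest unadjusted p, 0.0124 (limma adjusted p = 0.191). No other of the 6 was under 0.05, against 14.3% of all genes. On other probe sets of these neighbours MSX2 reached -0.16 and CPEB4 0.09.

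**Figure D4:**
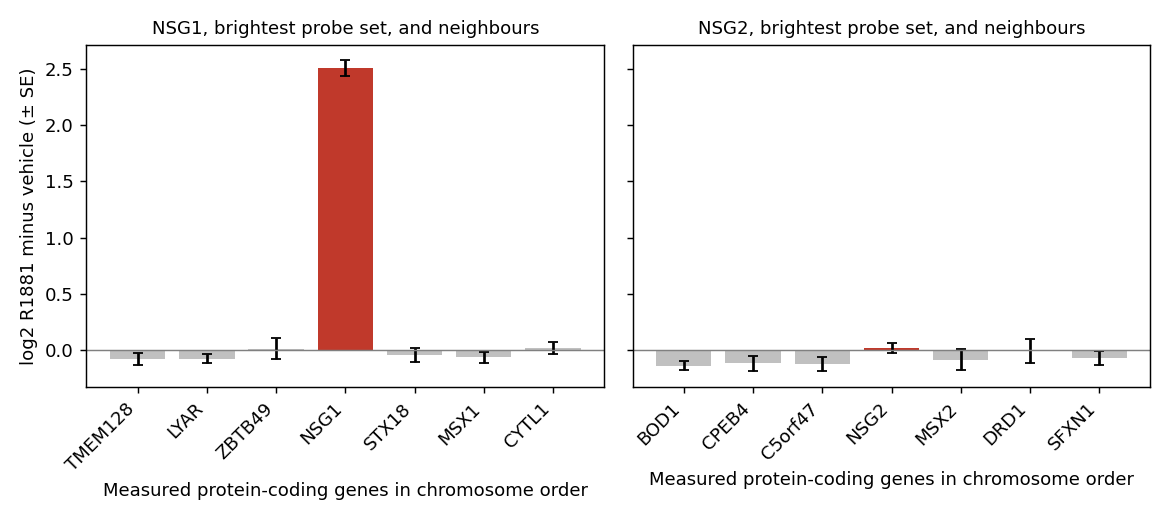
Log2 difference, R1881 minus vehicle, with SE (vertical axis) of NSG1 (left panel) and NSG2 (right panel) on their brightest probe sets and of the 3 nearest measured protein-coding genes on each side, in chromosome order (horizontal axis). The SE is that of limma for the neighbours and comes from the group SDs for NSG1 and NSG2. NSG1 stands at 2.50, while all 12 neighbours, on their brightest sets, lie between -0.14 and 0.02.

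Markers of the labelled cell type were mixed. KRT18 and KRT8, keratins of simple epithelia, averaged 10.38 and 7.84 with R1881 and 10.75 and 7.91 with vehicle, and the mesenchymal filament gene VIM averaged 14.06 with R1881 and 14.10 with vehicle. The epithelial adhesion genes EPCAM and CDH1 and the uroplakin genes UPK1B, UPK2 and UPK3A, which mark differentiated urothelium, lay below background in both groups. Another uroplakin gene, UPK1A, stood just above it, at 5.08 with R1881 and 5.03 with vehicle, and 6 of 16 epithelial markers lay above it in at least 1 group. KRT18 fell by 0.37 ± 0.05 and KRT7 rose by 0.40 ± 0.06 (limma adjusted p = 0.00830 and 0.0192). These 2 calls are 12.5% of the 16 epithelial markers, against 2.42% of all genes. Among 10 mesenchymal markers 1 was called, or 10%, the fibronectin gene FN1, which rose (0.73 ± 0.08, adjusted p = 0.00473). The 8 FN1 probe sets ran from 0.03 to 0.89. Only 3 of the 10 mesenchymal markers were higher by sign, and SPARC stood at -0.16. Of these 10, 8 lay above background in at least 1 group, and the collagen genes COL1A1 and COL1A2 lay below it in both. KRT7 lost its call without any 1 array but R1881 replicate 3, with an adjusted p of up to 0.104. With the replicate number as a block in the fit, KRT18 and KRT7 both lost their calls (limma adjusted p = 0.0644 and 0.0929). Of 11 immune and endothelial markers 0 were called by limma, with 2 at an unadjusted p under 0.05, against 2.42% and 14.3% of all genes. The largest difference there was in the macrophage marker CD68, at 8.69 with R1881 and 8.93 with vehicle (-0.24 ± 0.10, limma adjusted p = 0.328). A signal over the background level was seen for 4 genes of this list. Besides CD68 these were CSF1R and VWF, and CD3E with R1881 only, with no group mean above 5.14. PTPRC averaged 2.93 with R1881 and 3.00 with vehicle, and CD14 averaged 3.27 and 3.19, all under that level. The part of any of these in the NSG1 difference was not tested.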

How the data were processed

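The deposited log2 values, 1 per probe set and array, come from the authors' RMA run, which the submitters' processing notes name without a version. RMA quantile-normalizes arrays, so a change of all RNAs in one direction would be removed. Array medians were 5.49 to 5.51. The precision is limited by 3 arrays per group, and there were no detection calls.

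The platform annotation gave 1 symbol for 44898 of 49193 probe sets, several for 1825 and none for 2470. All NSG1 and NSG2 probe sets were described separately. Other genes were represented by their probe set of highest mean (18129 genes) and tested with limma 3.58.1 in R 4.3.3 (lmFit and eBayes, no trend, two-sided, Benjamini-Hochberg adjustment over all genes, threshold 0.05). The fit was tested on simulated data. Named genes were all partners and cargoes and up to 6 called members of each of 10 lists. Also named were the largest difference in a list without a call, 3 neighbours per side and the 5 nearest profiles. Cell type markers and p53-induced genes besides the called ones, and ABLIM3, were named after their values were seen. The members and lists were chosen with earlier results of these data known. The lists come from general knowledge and overlap.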

Additional observations from a re-analysis of the deposited data

How the results depend on the processing

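The change of NSG1 on its brightest probe set was 2.44 to 2.54 when any 1 array was left out, and 2.49 with arrays re-centred or quantile-normalized again. It was 1.70 as the mean of its 5 probe sets, which takes in the 2 sets of smaller change. Its lower bound of 3.91-fold depends on the background level. It was 1.97-fold with the 95th percentile, while with the 75th the vehicle arrays lie above the level and the measured fold of 5.67 replaces the bound. NSG2 ranged from -0.01 to 0.06 on its brightest set without 1 array.

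The count of all called genes was 757 among genes above background, 895 with a trended, robust prior, 222 with the replicate block and 209 to 270 without 1 array, the lowest without R1881 replicate 2, against 438. The calls were 290 higher and 148 lower, 423 and 334 above background, and 475 and 420 with the trended, robust prior. Leaving out an array also leaves fewer samples. Some list counts moved with genes above background only or the trended, robust prior. In both, the partner, early endosome, retromer and neuronal lists had 1 call each (L1CAM, EHD2, SNX5 and ENO2). Calls over all genes rose too, to 757 of 11049 above background and 895 of 18129 with that prior. A list's 1 call is therefore not read as a result about it. The late endosome list had 2 calls (1 higher, 1 lower), then 3 (1 higher, 2 lower). Under each fit 6 p53-induced genes were called, 4 higher and 2 lower, then 5 higher and 1 lower. The cause was not tested. As the mean of probe sets, 2 p53-induced genes were called higher and 1 lower. The replicate block called 0 late endosome genes and 1 p53-induced gene. Without 1 array these were 0 to 1 and 1. The clathrin list stayed at 0 in all alternatives run. SESN1 lost its call after re-centring (adjusted p = 0.0558), after another quantile normalization (0.0527) and as the mean of its probe sets (0.723), and the neighbour BOD1 was called with the trended, robust prior (0.0497).

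The labels number the arrays of each group 1 to 3, but the deviations of same-numbered arrays correlated at only 0.092, 0.057 and 0.033, so the numbers were not taken as pairs, although each array correlated best with its own number. Signal over background limits NSG2, CALY and the neuronal partners.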
